A study of Mus musculus with 4 samples.

Results

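Adoptively transferred and endogenous CD8 T cells of the same B16-F10 tumours were compared in the arm of the study labelled IRF4. The comparison held 2501 cells, 494 from the library of transferred cells and 2007 from the library of endogenous cells, out of 17711 barcodes in the 4 libraries of the series, of which 15132 passed the depth filters. A barcode entered with at least 1000 unique molecular identifiers (UMIs, each standing for 1 captured RNA molecule), at least 500 genes and at most 10% of UMIs from mitochondrially encoded genes. It also needed at least 2 UMIs of Cd8a and Cd8b1 together and at least 1 of Cd3d, Cd3e and Cd3g, no UMI of Cd4 or of the B cell gene Cd79a, and fewer than 10 per 10000 UMIs of the myeloid gene Lyz2. These 8 genes chose the cells and are not results.

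B16-F10 is a transplantable melanoma line of C57BL/6 mice. Pmel-1 cells are CD8 T cells from mice with a transgenic T cell receptor for the melanoma antigen gp100, so nearly all of them carry 1 receptor, while the CD8 T cells of the host carry many. In the IRF4 arm the Pmel-1 cells had been transduced to express IRF4 together with GFP, and in the control arm with GFP alone. They were given 3 days after tumour implantation, and tumour-infiltrating cells were taken on day 14. The transferred cells were labelled as CD8 T cells, and the endogenous cells of each arm were sorted as CD45-positive cells from tumours that also held transferred cells. The tumour, the strain, the day and the transfer of Pmel-1 cells are thus shared by all 4 groups, which differ by the origin of the cells and by the gene that the transferred cells were given. How many animals each library pooled, their ages and sexes, whether the host had been depleted of lymphocytes and whether GFP-positive cells were kept out of the CD45 sort are not given in the sources used here. Each group is 1 library, so the differences below have no replicate check and no test was made. The intervals in brackets are exact, at 95%, and cover counting error only.

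A CD8 T cell that meets its antigen for days in a tumour passes from a state with memory-like features, kept by transcription factors such as TCF1 (Tcf7), through effector states rich in granzymes, to a state called exhausted, with inhibitory receptors such as PD-1 (Pdcd1) and the factor TOX. IRF4 is a transcription factor that is induced by T cell receptor signals. It binds DNA with BATF and JUN proteins and is needed for CD8 T cells to expand and to become effector cells. Eomes and T-bet (Tbx21) are related factors that drive cytotoxic programs, and Eomes is also known in memory cells and in exhausted cells.

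The labels were first set against the RNA. Irf4 was at 27.9 (25.2 to 30.8) UMIs per 1000000 UMIs of the library (CPM) in the transferred cells of the IRF4 arm and at 10.5 (9.44 to 11.6) CPM in the endogenous cells, a ratio of 2.66-fold (2.30 to 3.07). In the control arm it was at 26.3 (25.1 to 27.5) and 9.51 (7.79 to 11.5) CPM. Irf4 was thus higher in both transferred libraries, and its level in the transferred library labelled IRF4 lay near that of the library labelled as control. The counts come from the 3' ends of transcripts, and the sources used here do not say whether a transcript made from the vector would be counted as Irf4. The Irf4 counts therefore do not check the label of the transduced gene, and "IRF4 arm" is used here as the label.

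The receptor gave a clearer check of origin. Of the transferred cells, 456 of 494 (92.3%, 89.6 to 94.5) had a UMI of Trbv14, a V segment of the T cell receptor beta chain at chr6:41135145-41135616 on the plus strand of GRCm38, against 52 of 2007 (2.59%, 1.94 to 3.38) of the endogenous cells. Trbv13-1 was the next segment, in 69 transferred cells, of which 66 also had Trbv14, and it gave 76 UMIs against 4440 of Trbv14. No other beta segment was seen in more than 3 transferred cells. In the endogenous cells the leading segment was Trbv16, in 153 cells (7.62%). The transferred library was therefore led by 1 beta segment and the endogenous library by none. The last 300 bases of the reference Trbv14 transcript in the GENCODE vM21 annotation are shown because this segment marks the transferred cells, with the stretch that encodes the conserved end of the V segment in capitals, which Trbv13-1 shares letter for letter:
Trbv14: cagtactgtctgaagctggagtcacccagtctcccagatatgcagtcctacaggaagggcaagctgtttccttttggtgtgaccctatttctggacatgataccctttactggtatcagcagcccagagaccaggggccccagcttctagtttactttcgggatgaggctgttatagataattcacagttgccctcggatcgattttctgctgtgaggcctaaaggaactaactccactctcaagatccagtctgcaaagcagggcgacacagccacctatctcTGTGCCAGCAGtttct

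Transcripts of sex-linked genes showed that the transferred library was itself mixed. Xist, which is transcribed from the inactive X chromosome, was found without a Y-linked UMI in 135 of 494 (27.3%, 23.4 to 31.5) transferred cells, and Y-linked UMIs without Xist in 274 of 494 (55.5%, 51.0 to 59.9). Both were present in 49 of 494 (9.92%, 7.43 to 12.9), at a median depth of 52646 UMIs against 14036 and 16082 in the 2 kinds with only 1 of them, and 36 cells had neither. Of the endogenous cells 1723 had Y-linked UMIs without Xist and 2 had both. Xist without a Y-linked UMI was found in 0 of 2007, which allows a share of up to 0.149%. Nearly all transferred cells with Xist alone carried Trbv14 (133 of 135), as did 245 of the 274 with Y-linked UMIs alone. The cells with both kinds were few but deep. Of 110 named genes with a call, Xist left out, 109 kept it without these cells, the other being Pdcd1, and values without them are given below for named genes that lost a call or moved by over 1.5-fold. Transferred and endogenous cells shared no barcode sequence, and 2 and 3 of the cells compared shared theirs with another library of the series.

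**Figure D1:**
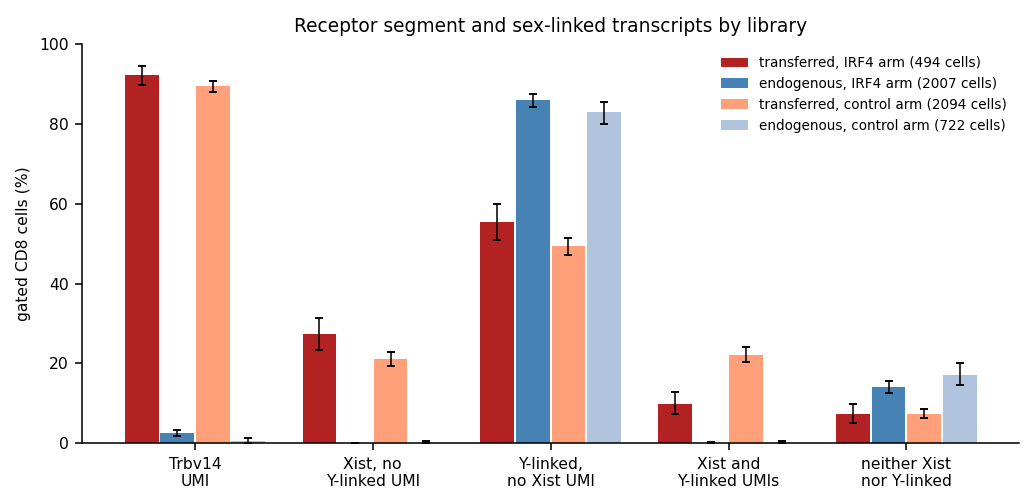
Origin of the cells by T cell receptor and sex-linked transcripts: percent of gated CD8 cells with a UMI of Trbv14, and with UMIs of Xist only, Y-linked genes only, both or neither, in each of the 4 libraries, as bars with exact 95% intervals. Trbv14 was found in 92.3% of transferred and 2.59% of endogenous cells of the IRF4 arm, and Xist without Y-linked UMIs in 27.3% of the transferred and in none of the endogenous cells.

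The transferred cells held 13815114 UMIs at a median of 16082 per cell and the endogenous cells 35288139 at a median of 11171, with median mitochondrial shares of 3.79% and 4.03%. The CD8 markers, which the gate used, were at like levels in both libraries: Cd8a was at 800.1 and 639.6 CPM, Cd8b1 at 755 and 777, and Cd3e at 472 and 458. All UMIs of the gated cells of 1 library were added up and scaled to CPM. A gene counted as measured if either library reached 10 CPM, and as higher or lower in the transferred cells (a call) at a 1.5-fold difference of CPM after adding 1. Log2 ratios are on that scale and are given as transferred over endogenous. Plain folds are ratios of CPM. In bulk sums of this kind, fewer cells with a transcript and less RNA per cell cannot be told apart, and shares of cells are given further on.

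Of 7584 genes measured, 433 (5.71%) were higher and 733 (9.67%) were lower in the transferred cells, and the median log2 ratio over all of them was -0.07. The counts of higher and lower members in each gene list below are to be read beside these shares. The genes furthest up included the chemokine genes Ccl1 and Xcl1, the lymph node homing receptor Ccr7, the IL-2 receptor alpha chain Il2ra and the costimulatory receptor Tnfrsf4. Those furthest down were led by Eomes and Gzmk, with the chemokine receptor Ccr2, Cd7 and the IL-10 receptor chain Il10ra. Eomes was at 3.76 (2.81 to 4.94) CPM in transferred and 108 (105 to 112) CPM in endogenous cells, 28.8-fold (21.9 to 38.6) lower. Gzmk, which encodes granzyme K, was at 22.8 (20.4 to 25.5) and 398 (392 to 405) CPM, 17.5-fold (15.6 to 19.6) lower. Ccr7 was at 253 (245 to 262) and 23.1 (21.5 to 24.7) CPM, 11-fold (10.2 to 11.8) higher. Ccl1 was at 443 (432 to 454) and 11.6 (10.5 to 12.8) CPM, but 50% of its UMIs came from 10 transferred cells and 4 endogenous cells, so its level rests on a small number of cells. Eomes and Gzmk UMIs in the endogenous library were spread far wider, with 50% of them in 227 and 259 cells.

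The other genes at the high end were Xist (289.5 against 0.0567 CPM, the sex-linked difference above), the tetraspanin Cd81 (128 against 10.7), Igfbp7 (100.03 against 8.93), Dapl1 (333 against 38.9), Rgcc (72.9 against 10.4), Hivep3 (64.1 against 9.55), Nrn1 (211 against 47.4), the actin crosslinker Actn1 (123 against 28.4), the semaphorin receptor Nrp1 (254 against 59.7) and the arginine synthesis enzyme Ass1 (105 against 25.4). Each had 50% of its transferred UMIs in at least 24 cells. At the low end stood the sialyltransferase St3gal6 (5.86 against 55.7 CPM), the Tec family kinase Txk (8.32 against 55.5), the oxysterol receptor Gpr183 (13.8 against 65.5), the lysosomal sulfatase Arsb (25.8 against 113) and Atp8b4 (28.3 against 111). The MHC class II genes H2-Aa (57.5 against 238 CPM), H2-Ab1 (68.5 against 252) and H2-Eb1 (57.0 against 233) were also among them. These class II genes present antigen in B and myeloid cells, and 50% of their UMIs came from 2 to 3 transferred and 13 to 14 endogenous cells. Without the cells with both Xist and Y-linked UMIs, the log2 ratios of H2-Aa, H2-Ab1 and H2-Eb1 went from -2.03, -1.86 and -2.01 to -3.18, -3.01 and -3.19.

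**Figure D2:**
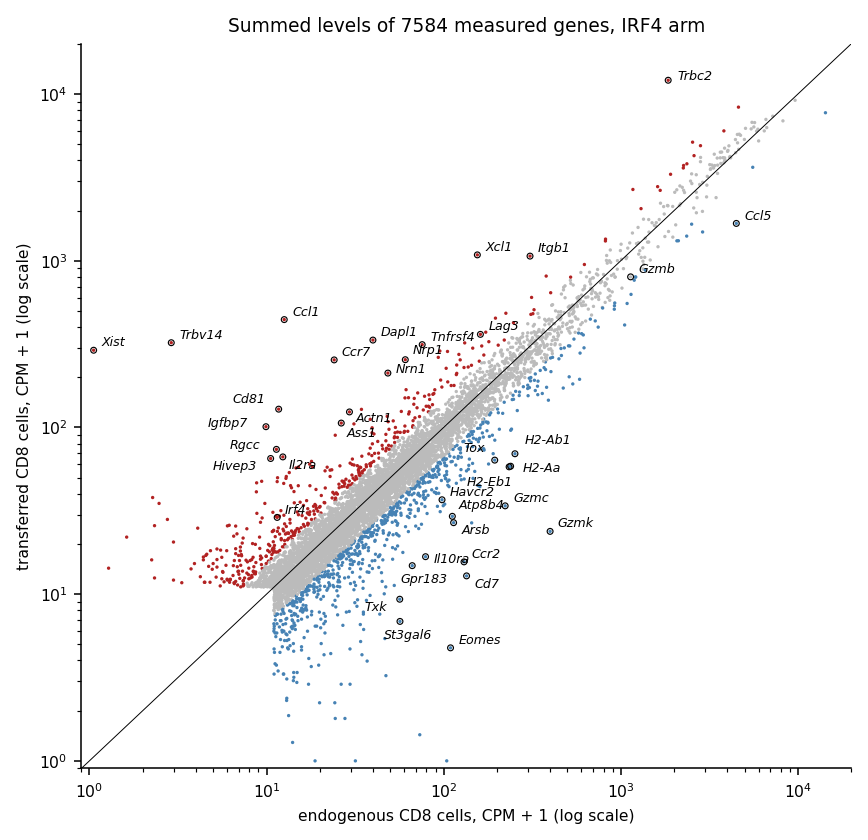
Summed level of each of the 7584 measured genes in endogenous (x) and transferred (y) CD8 cells of the IRF4 arm, as CPM + 1 on log axes, 1 point a gene, with the line of equal levels. Red points were called higher, blue points lower and grey points neither in the transferred cells. Eomes and Gzmk lie below the line, at 3.76 and 22.8 CPM in transferred and 108 and 398 CPM in endogenous cells, and Ccr7 lies above it at 253 and 23.1 CPM.

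Costimulatory receptors divided. Of 13 measured genes of this kind, 3 were higher and 2 lower, with a median log2 ratio of 0.23. Tnfrsf4, which encodes OX40, was at 313 (304 to 322) CPM in transferred and 74.7 (71.8 to 77.6) CPM in endogenous cells. Tnfrsf18, which encodes GITR, was at 253 and 123 CPM, and Slamf1 at 32.6 and 19.1. The adhesion partner Cd48 (259.9 against 400.4 CPM) and Cd7 (11.9 against 134) were lower. Cd28, Cd27, Icos and Tnfrsf9 differed by less than 1.5-fold. The median of the list was below 0 with cells averaged (-0.12), thinned (-0.04) or without a cycle gene UMI after thinning (-0.12).

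Inhibitory receptors did not move as 1 group. Of 10 measured, 2 were higher and 4 lower, with a median log2 ratio of -0.48. Lag3, which binds MHC class II, was at 361 (351 to 371) CPM in transferred and 160.3 (156 to 164) CPM in endogenous cells, 2.25-fold (2.17 to 2.34) higher, and Cd160 was at 153 and 77.0 CPM. Havcr2, which encodes TIM-3, was at 35.8 (32.7 to 39.1) and 96.9 (93.7 to 100.2) CPM, 2.70-fold (2.46 to 2.98) lower, and Cd200r1 (2.32 against 11.5) and Cd244 (5.43 against 17.8) were also lower. Pdcd1 was at 246 (238 to 255) and 374 (368 to 381) CPM, a log2 ratio of -0.60 that just passed the call. It kept the call in 10 of 19 alternative settings. Without the cells with both Xist and Y-linked UMIs it stood at -0.54, short of the call, and averaging single cells in place of summing them gave -0.15. With cells thinned to 2000 UMIs the median of the list was 0.10. The average of single cells took Havcr2 to -0.41, short of the call. Ctla4 was at 124 and 83.2 CPM and Tigit at 4.85 and 6.29, without a call for Ctla4 and below the measured level for Tigit.

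The transcription factors tied to effector function and exhaustion were split more sharply. Of 19 measured, 7 were higher and 8 lower, with a median log2 ratio of -0.08. Besides Eomes, the lower members included Tox at 62.7 (58.6 to 67.0) against 193 (189 to 198) CPM, 3.08-fold (2.87 to 3.31) lower, its relative Tox2 (3.91 against 12.6), Ikzf2, which encodes Helios, at 43.8 (40.4 to 47.4) against 158 (154 to 163) CPM, and Id2, an inhibitor of E proteins, at 181 against 535 CPM. Batf (53.9 against 134), Maf (14.3 against 33.7) and Prdm1, which encodes BLIMP-1 (18.2 against 32.0), completed them. The higher members were Irf4, the receptor-induced Nr4a1 (33.1 against 15.2 CPM) and Nr4a3 (52.6 against 12.4), Bhlhe40 (207 against 117), Irf8 (229 against 137), Batf3 (11.2 against 5.24) and Zeb2 (56.8 against 32.6). Zeb2 fell short of the call in 2 of 20 alternative settings. Tbx21, the relative of Eomes, was at 40.9 and 39.9 CPM, a log2 ratio of 0.03 against -4.52 for Eomes.

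IRF4 acts with partners, and of 15 measured partners and reported targets 5 were higher and 6 lower, with a median log2 ratio of -0.26. The higher members were Irf4, Irf8, Batf3, Bhlhe40 and Cd160, the lower ones Batf, Jun, Prdm1, Id2, Ikzf3 and Cd244. Jun was at 219 and 350.0 CPM and Ikzf3, which encodes Aiolos, at 61.5 and 111. Irf4 was thus higher and its partner Batf lower in the transferred cells.

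Stem-like and memory genes were higher in part. Of 17 measured, 6 were higher and 4 lower, with a median log2 ratio of 0.31. Along with Ccr7, the higher members were Bach2, a repressor that holds back effector genes, at 45.5 (42.0 to 49.2) against 7.79 (6.90 to 8.77) CPM, Id3 at 48.9 (45.3 to 52.8) against 10.5 (9.50 to 11.7), the chromatin organiser Satb1 (149 against 59.5), Foxp1 (130.2 against 69.8) and the IL-7 receptor Il7r (133 against 78.7). The lower members were Lef1 (25.3 against 74.0 CPM), the quiescence factor Klf2 (96.8 against 241), Klf3 (21.0 against 33.0) and the egress receptor S1pr1 (10.6 against 28.8). Tcf7 was at 85.8 (81.0 to 90.8) and 57.5 (55.0 to 60.0) CPM, a log2 ratio of 0.57 without a call, and its relative Lef1 was called the other way. Both Tcf7 and Il7r depended on which cells were compared. Among cells with no UMI of 5 cycle genes (Birc5, Ccnb2, Cdk1, Mki67 and Top2a) the log2 ratios were -0.53 for Tcf7 and -0.03 for Il7r, and among cells with a Pdcd1 UMI they were 1.5 and 1.81. The median of the list was -0.20 among the former and 0.46 among the latter.

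Granzymes and granule genes were lower or level in the transferred cells. Of 17 measured, 0 were higher and 10 lower, with a median log2 ratio of -1.06, where 9.67% of all genes measured were lower. Among cells without a Lyz2 UMI the median was -0.48. Granzymes are the proteases that killer cells inject through perforin pores. Gzmb, the main one of CD8 effector cells, was at 799 (785 to 815) and 1135 (1124 to 1147) CPM, a log2 ratio of -0.51 without a call. Gzma was at 43.9 and 155 CPM, perforin (Prf1) at 32.9 and 98.5, the granule protein Nkg7 at 1317 and 2114, and the death ligand Fasl at 38.1 and 80.7. The granzymes that neighbour Gzmb in the genome rested on few cells. Gzmd, Gzme and Gzmg had 0 UMIs in the transferred cells, at least 475-fold, 142-fold and 82.0-fold lower against a floor of 3 counts in the library, but 50% of their endogenous UMIs came from 1 cell each. Gzmf was at 0.434 and 72.3 CPM and Gzmc at 32.9 and 222 CPM, with 50% of the endogenous UMIs in 5 and 2 cells. Without cells with a Lyz2 UMI Gzmc lost its call, at a log2 ratio of -0.48 against -2.72. Gzma went from -1.80 to -2.44 without the cells with both Xist and Y-linked UMIs. Gzmk, in contrast, had UMIs in 68.3% of endogenous and 22.1% of transferred cells before thinning.

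Among cytokines and chemokines, 14 were measured, of which 4 were higher and 2 lower, with a median log2 ratio of 0.09. Xcl1, which attracts cross-presenting dendritic cells, was at 1084 (1066 to 1101) CPM in transferred and 154 (149.9 to 158) CPM in endogenous cells, 7.04-fold (6.82 to 7.26) higher. Besides Ccl1, a ligand of CCR8, lymphotoxin alpha (Lta, 17.7 against 4.25 CPM) and Tnfsf14, which encodes LIGHT (15.7 against 3.40), were higher. Ccl5, a chemokine that draws T cells and monocytes, was at 1674 (1652 to 1696) and 4491 (4469 to 4513) CPM, 2.68-fold (2.65 to 2.72) lower. Il2 was lower at 5.36 against 10.8 CPM. Ifng was at 216 (208 to 224) and 154 (150.0 to 158) CPM, a log2 ratio of 0.49, and Tnf at 16.8 and 15.6, Ccl3 at 275 and 342 and Ccl4 at 608 and 578, all without a call.

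Cytokine receptors were mostly level: of 18 measured, 4 were higher and 3 lower, with a median log2 ratio of -0.04. Il2ra, the inducible chain that makes the IL-2 receptor high in affinity, was at 65.6 (61.4 to 70.0) and 11.4 (10.3 to 12.5) CPM, 5.77-fold (5.13 to 6.51) higher, while the shared chains Il2rb (169.6 against 173) and Il2rg (173 against 130.4) were without a call. The IL-12 receptor chains went opposite ways, Il12rb2 at 30.7 against 11.1 CPM and Il12rb1 at 7.60 against 22.7. The IL-18 receptor chain Il18r1 was higher (126 against 75.7), and the interferon-gamma receptor chain Ifngr1 (171 against 472) and Il10ra (15.8 against 78.0) were lower. Of 13 SOCS, STAT and Janus kinase genes measured, 1 was higher and 2 lower, with a median log2 ratio of 0.03. Stat4, which relays IL-12, was at 191 and 95.2 CPM, Jak1 at 175 and 281, and the feedback inhibitor Socs3 at 13.8 and 37.1.

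Homing and adhesion receptors were lower in most members. Of 18 measured, 2 were higher and 11 lower, with a median log2 ratio of -0.68. Over all genes measured 5.71% were higher and 9.67% lower. Ccr2, the receptor for CCL2, was at 14.6 (12.7 to 16.8) and 129 (126 to 133) CPM, 8.84-fold (7.68 to 10.2) lower. Cxcr3 (55.2 against 137 CPM) and Cxcr6 (145 against 389), which guide effector cells into inflamed tissue, were lower as well, and so was Cxcr4 (10.3 against 30.8). The higher members were Ccr7 and the integrin beta chain Itgb1, at 1065 (1048 to 1083) against 306 (301 to 312) CPM, while its relatives Itgb2 (141 against 219) and Itgb7 (106 against 177) were lower. The small lists of tissue-resident and terminal effector genes were mixed. Of 5 measured residency genes 1 was higher and 2 lower, with a median log2 ratio of -0.22, Bhlhe40 being the higher and Cd69 (86.6 against 166 CPM) and Cxcr6 the lower ones. Of 8 measured terminal effector genes 1 was higher and 4 lower, with a median log2 ratio of -0.57, with Klrg1, a receptor of short-lived effector cells, at 2.24 (1.52 to 3.19) against 46.2 (44.0 to 48.5) CPM, 20.6-fold (14.5 to 30.4) lower. Of 7 measured lectin receptors of the NK type 1 was higher and 3 lower, with a median log2 ratio of -0.08. This median moved with the cells compared. It was -2.19 among cells without a cycle gene UMI after thinning and 0.17 among those with a Pdcd1 UMI. With cells averaged it was -0.94, and with no filter on low values -0.86. Klrk1, which encodes the activating receptor NKG2D, was the higher one at 452 against 195 CPM, and Klre1 (21.7 against 53.8) and Klra7 (1.23 against 18.9) were lower beside Klrg1.

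Most genes of signalling below the T cell receptor were without a call. Of 24 measured proximal genes, 2 were higher and 6 lower, with a median log2 ratio of -0.28, beside 5.71% higher and 9.67% lower over all genes measured. The phosphatase Ptpn6, which encodes SHP-1, was at 285 (276 to 294) and 104 (101 to 108) CPM, and the adaptor Sla at 225 and 102. Both restrain receptor signals. The lower members were Cd247, the zeta chain (84.3 against 158 CPM), Lat (221 against 375), Cd5 (54.9 against 124), Cd6 (43.1 against 106), Themis (63.6 against 139) and Sh2d1a, which encodes SAP (166 against 328). The constant segments of the receptor beta chain were at 12099 and 1851 CPM for Trbc2 and at 831 and 911 for Trbc1, where the transferred cells share 1 rearranged chain. These constant segments are near-identical, as are members of the granzyme, Gbp, Klra and Ifit families, and the sources used here do not say how the counting divided such reads.

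Early activation genes went both ways. Of 19 measured, 5 were higher and 8 lower, with a median log2 ratio of -0.24. Egr2, a target of NFAT, was at 24.9 (22.3 to 27.7) and 5.16 (4.44 to 5.96) CPM, Rel at 91.9 and 38.4, Myc at 60.1 and 28.6 and Nfkbia at 333 and 219, all higher with Nr4a1. Fos (59.4 against 178 CPM), Fosb (59.9 against 145), Jun, Egr1 (36.9 against 75.9), Dusp1 (36.0 against 77.1), Dusp5, Zfp36 (32.6 against 77.5) and Cd69 were lower. Fos, Fosb, Jun and Zfp36 are also known to respond to handling of tissue, and in the list of heat shock and handling genes, 10 were measured, of which 1 was higher and 2 lower, with a median log2 ratio of -0.17. The stress-induced Hspa1a was at 44.0 and 105 CPM and Hspa1b at 38.4 and 65.1. Both differed within the transferred library, Hspa1a being at 17.1 (12.8 to 22.5) CPM in its cells with Xist alone and 61.3 (55.5 to 67.6) CPM in those with Trbv14 and Y-linked UMIs alone, and Hspa1b at 15.8 (11.7 to 21.0) and 48.8 (43.6 to 54.4). The part of handling in the lower Fos and Jun levels was not tested.

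Interferon-induced genes were lower in the transferred cells as a group. Of 20 measured genes of the type I interferon response, 1 was higher and 16 lower, with a median log2 ratio of -1.21, where 9.67% of all genes measured were lower. Ifit3 was at 2.97 (2.13 to 4.03) CPM in transferred and 36.0 (34.0 to 38.0) CPM in endogenous cells, 12.1-fold (8.89 to 17.0) lower. Ifit1 was at 3.33 (2.44 to 4.44) and 33.6 (31.7 to 35.5), Rtp4 at 5.14 (4.01 to 6.48) and 34.3 (32.4 to 36.3), and Mx1 at 1.95 and 13.8. Ifit1 was further down, at a log2 ratio of -4.01 without the cells with both Xist and Y-linked UMIs. Without cells with a Lyz2 UMI the log2 ratios were -4.40 for Ifit1, -4.06 for Ifit3 and -3.42 for Rtp4. Isg15 (17.7 against 52.5 CPM), Isg20 (8.83 against 37.4), the antiviral Rsad2 (2.46 against 10.6) and Irf7 (10.9 against 44.0), the factor that amplifies type I interferon, were lower too. Ifi27l2a was the exception, at 808 (793 to 823) and 378 (372 to 385) CPM, higher. The receptor chains Ifnar1 (72.0 against 57.2 CPM) and Ifnar2 (34.5 against 47.3) were without a call.

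Genes of the interferon-gamma response were lower by less. Of 24 measured, 0 were higher and 12 lower, with a median log2 ratio of -0.59. The guanylate-binding protein Gbp7 was at 43.1 and 159 CPM, Gbp2 at 24.6 and 68.5, Gbp9 at 15.9 and 42.3 and Gbp3 at 24.4 and 59.9. Irf1 was at 75.8 and 145 CPM. Gbp5, Cd274 and the class I genes B2m and H2-K1 differed by less than 1.5-fold.

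The interferon-stimulated response element, to which IRF proteins bind, holds paired GAAA repeats. A motif of GAAA, any 2 bases and GAAA was searched on both strands, with overlapping matches counted, in the 250 bases before the start of each gene in RefSeq promoters of GRCm38.p6. It was found for 7 of 13 lower type I interferon genes with a promoter in the table (53.8%), against 211 of 5895 measured genes (3.58%) and 978 of all 32851 promoters (2.98%). The list holds genes known as interferon targets, so this share describes the list and is no test. A match is no evidence of binding. Isg20, Ifit2, Ifi35, Irf7, Xaf1 and Samhd1 were lower with no match in this window. The upstream windows of 4 of the 7 genes that hold the motif are shown as written 5' to 3' on the strand of the gene, to show where it lies in them, with the bases of each match in capitals. Ifit3 lies at chr19:34583279-34583528 and Ifit1 at chr19:34640639-34640888 (plus and plus strand), Rsad2 at chr12:26456453-26456702 (minus) and Isg15 at chr4:156200819-156201068 (minus).
Ifit3: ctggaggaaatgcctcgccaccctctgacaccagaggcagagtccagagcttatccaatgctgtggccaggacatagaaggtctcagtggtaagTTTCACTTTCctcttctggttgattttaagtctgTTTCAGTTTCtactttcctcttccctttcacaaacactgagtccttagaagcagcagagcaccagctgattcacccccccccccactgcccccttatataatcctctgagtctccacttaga
Ifit1: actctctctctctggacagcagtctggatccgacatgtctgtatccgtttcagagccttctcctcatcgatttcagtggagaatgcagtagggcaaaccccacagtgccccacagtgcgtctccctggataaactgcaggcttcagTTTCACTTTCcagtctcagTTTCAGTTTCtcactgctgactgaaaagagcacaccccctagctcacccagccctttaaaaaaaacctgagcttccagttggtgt
Rsad2: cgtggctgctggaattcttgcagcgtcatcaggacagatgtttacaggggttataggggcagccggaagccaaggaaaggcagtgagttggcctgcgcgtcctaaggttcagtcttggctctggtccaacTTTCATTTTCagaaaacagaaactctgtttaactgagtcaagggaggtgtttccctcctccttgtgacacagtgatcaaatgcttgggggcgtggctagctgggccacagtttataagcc
Isg15: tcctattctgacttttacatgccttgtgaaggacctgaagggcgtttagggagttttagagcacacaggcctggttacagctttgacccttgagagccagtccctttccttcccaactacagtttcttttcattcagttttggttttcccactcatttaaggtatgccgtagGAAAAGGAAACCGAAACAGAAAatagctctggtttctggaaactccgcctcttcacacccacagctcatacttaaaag

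Biosynthetic genes were higher to a modest degree. Of 20 measured Myc and biosynthesis genes, 6 were higher and 0 lower, with a median log2 ratio of 0.40. Myc itself, the spermidine synthase Srm (124 against 56.7 CPM), and the nucleolar genes Nolc1 (146 against 82.4), Ncl (1313 against 818), Npm1 (2643 against 1669) and Nop58 (249 against 158) made up the higher ones. Of 82 ribosomal protein genes measured, 12 were higher and 0 lower, with a median log2 ratio of 0.22. Of 19 glycolysis genes, 4 were higher and 0 lower, with a median log2 ratio of 0.18: hexokinase Hk2 at 22.9 against 9.92 CPM, Hif1a at 326 against 179, Pgk1 at 113 against 67.9 and the lactate exporter Slc16a3 at 60.4 against 38.1. Gapdh, Ldha and Slc2a1 were without a call. Of 31 nuclear genes of the respiratory chain and ATP synthase, 2 were higher and 0 lower, with a median log2 ratio of 0.01. The higher ones were Cox7c and Atp5k, a share near the 5.71% over all genes measured. Of 13 mitochondrially encoded genes 3 were higher and 0 lower, with a median log2 ratio of 0.11.

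Proliferation differed little. Of 28 measured genes, 0 were higher and 1 lower, with a median log2 ratio of -0.23, Ccnb2 being the lower one at 97.7 against 155 CPM. Mki67 was at 347 (338 to 357) and 416 (409.6 to 423) CPM, a log2 ratio of -0.26. After thinning every cell to 2000 UMIs, 39.7% of transferred cells (35.3 to 44.1; 69.2% unthinned) and 41.2% of endogenous cells (39 to 43.4; 59.4% unthinned) had a UMI of Mki67, Top2a, Birc5, Cdk1 or Ccnb2. The intervals overlap.

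The remaining lists are given together. Of 20 BCL2 family, death receptor and caspase genes, 4 were higher and 5 lower, with a median log2 ratio of 0.16. Both the survival gene Bcl2l1 (30.1 against 13.9 CPM) and the death genes Bcl2l11, which encodes BIM (81.4 against 41.5), and Bbc3, which encodes PUMA (15.5 against 8.39), were higher with Casp4. Bak1 (57.8 against 91.6), Bid, Casp1 and Casp8 were among the lower ones. The direction for Bbc3 was not stable: with cells thinned to 2000 UMIs its log2 ratio was -0.14 against 0.81. Of 17 S100, annexin and galectin genes, 1 was higher and 6 lower, with a median log2 ratio of -0.16, with S100a4 at 411 against 1051 CPM, S100a11 at 299 against 619, vimentin (Vim) at 553 against 1085, and the actin capper Capg the other way at 236 against 118. Of 16 genes of the unfolded protein response, 1 was higher and 0 lower, with a median log2 ratio of 0.28, Xbp1 being the higher one (86.9 against 51.8). Of 9 TGF-beta pathway genes, 0 were higher and 1 lower, with a median log2 ratio of -0.12, the lower one being the inhibitor Smad7 (47.6 against 125). Of 3 adenosine and ectoenzyme genes, 0 were higher and 2 lower, with a median log2 ratio of -2.17: Entpd1, which encodes CD39, at 6.59 (5.30 to 8.09) against 42.6 (40.5 to 44.8) CPM, and Cd38 at 6.80 (5.50 to 8.33) against 34.2 (32.3 to 36.2). The median of so short a list depends on the settings: it differed by over 1.5-fold in 9 of 19 alternatives, reaching -0.24 with no filter, and no member was called with a filter of 50 CPM. Of 4 metallothionein and zinc transport genes, 0 were higher and 1 lower, with a median log2 ratio of -0.26, Mt3 being the lower one at 3.69 against 28.6 CPM. The median of this list kept its sign in 14 of 20 alternatives. It was highest, at 0.42, among cells without a cycle gene UMI after thinning.

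**Figure D3:**
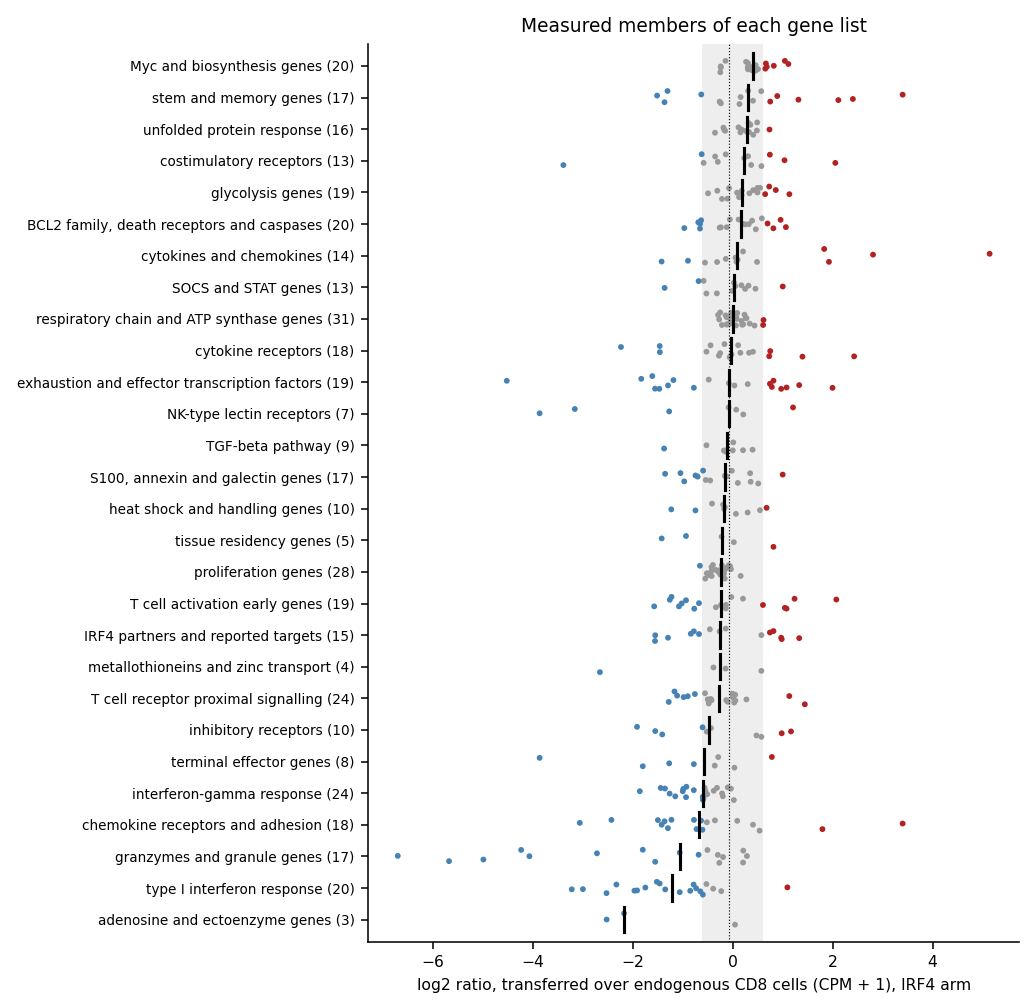
Log2 ratio of transferred over endogenous cells in the IRF4 arm, on CPM + 1, for each measured member of 28 gene lists, 1 point a gene, with the number of members in brackets, the median of each list as a black bar, the 1.5-fold limits as a grey band and the median of all measured genes as a dotted line. The type I interferon list has its median at -1.21 with 16 of 20 members called lower, and the proliferation list its median at -0.23 with 1 of 28 called.

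Shares of cells with a UMI, taken after thinning to 2000 UMIs, separated genes carried by many cells from those carried by few. B cells (105 cells, median depth 3366 UMIs) and myeloid cells (913 cells, 11552 UMIs) of the endogenous library were the background for genes they should lack. Gzmk was found in 7.69% (5.50 to 10.4; 22.1% unthinned) of transferred and 43.7% (41.6 to 45.9; 68.3% unthinned) of endogenous cells, against 1.90% of B cells and 0.662% of myeloid cells. Eomes was found in 0.810% (0.221 to 2.06; 3.64% unthinned) and 16.8% (15.2 to 18.5; 54.4% unthinned), with 0% and 0.331% in the background cells. The interval of the transferred share holds the share of the myeloid cells. Those cells come from the endogenous library, so they give no background for Eomes in the transferred library. Eomes UMIs were not spread evenly over the transferred cells, as given further on. Xcl1 was found in 41.1% (36.7 to 45.6; 61.5% unthinned) of transferred and 7.87% (6.73 to 9.14; 19.9% unthinned) of endogenous cells, with 1.90% and 1.76% in the background cells. For these genes the order of the shares was that of the CPM, and at least 1 library lay above the background cells.

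Lag3 was found in 55.3% (50.8 to 59.7; 93.5% unthinned) of transferred and 21.5% (19.7 to 23.3; 56.5% unthinned) of endogenous cells, and in 0.952% of B cells and 0.551% of myeloid cells. Ccl5 was found in 50.6% (46.1 to 55.1; 82.6% unthinned) and 86.3% (84.7 to 87.8; 96.5% unthinned), where the B and myeloid cells stood at 14.3% and 11.7%. Tox was found in 10.1% (7.61 to 13.1; 45.1% unthinned) and 26.1% (24.2 to 28.1; 66.8% unthinned), with 0% and 0.331% in the background. Ccr7 was found in 25.9% (22.1 to 30.0; 60.9% unthinned) and 3.94% (3.13 to 4.88; 12.4% unthinned). Its share in B cells, which use CCR7 themselves, was 44.8%, and in myeloid cells 0.331%.

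Gzmb, Pdcd1 and Tcf7 were carried by shares whose intervals overlap. Gzmb was found in 47.0% (42.5 to 51.5; 70.0% unthinned) and 52.8% (50.6 to 55.0; 71.4% unthinned), Pdcd1 in 36.0% (31.8 to 40.4; 78.9% unthinned) and 39.5% (37.3 to 41.6; 69.3% unthinned), and Tcf7 in 15.8% (12.7 to 19.3; 49.6% unthinned) and 16.3% (14.7 to 18.0; 35.0% unthinned). Irf4 was found in 4.05% (2.49 to 6.18; 34.8% unthinned) of transferred and 1.49% (1.01 to 2.13; 12.4% unthinned) of endogenous cells, and these intervals do not overlap. B cells, which express Irf4 themselves, had it at 4.76%, so that no background for Irf4 can be drawn from them. Myeloid cells stood at 1.21%, within the interval of the endogenous CD8 cells.

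**Figure D4:**
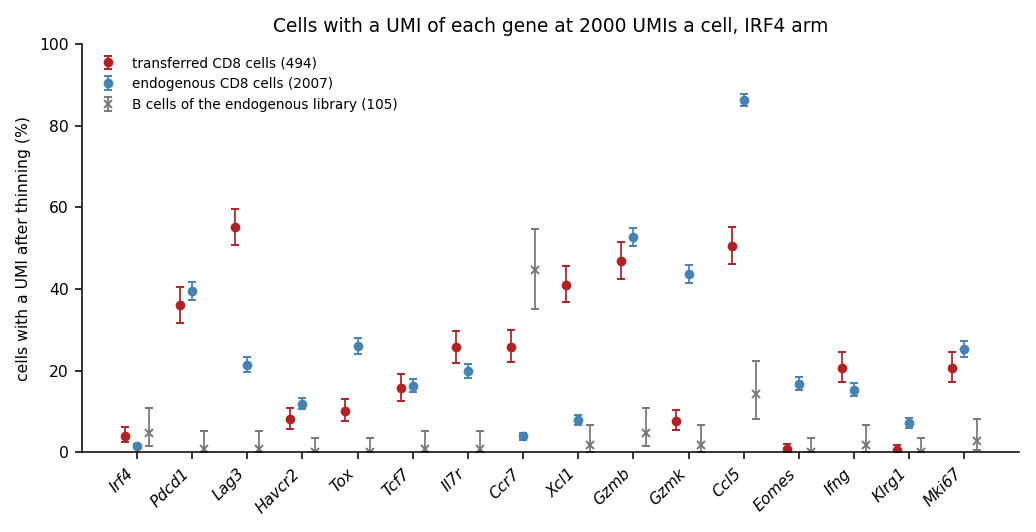
Percent of cells with a UMI of each gene after thinning every cell to 2000 UMIs, in transferred and endogenous CD8 cells of the IRF4 arm and in B cells of the endogenous library, with exact 95% intervals. Gzmk lies at 7.69% and 43.7%, Xcl1 at 41.1% and 7.87% and Pdcd1 at 36.0% and 39.5% of transferred and endogenous cells.

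Pairs of genes in the same cell were counted after thinning. Gzmb and Gzmk were found together in 25 transferred cells (5.06%) and 579 endogenous cells (28.8%). Gzmk without Gzmb was found in 13 (2.63%) and 299 (14.9%). In both libraries most cells with Gzmk thus also had Gzmb. The gap between the libraries follows the shares of Gzmk itself, 7.69% and 43.7%, and shows no difference in pairing. Gzmb with a cycle gene was found in 21.5% and 27.4%. Tcf7 with Pdcd1, a pair used to mark stem-like cells under chronic stimulation, was found in 4.66% (2.97 to 6.90) and 3.49% (2.73 to 4.39).

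Split by a Tcf7 UMI after thinning, cells with Tcf7 differed from the others of their library more in the endogenous than in the transferred library. Unthinned, 49.6% of transferred and 35.0% of endogenous cells had a Tcf7 UMI, against 15.8% and 16.3% thinned. The cells counted as without Tcf7 thus include carriers, and a larger part of them in the transferred library. The 327 endogenous cells with Tcf7 had Gzmb at 148 CPM, Mki67 at 97.0 CPM and Ccr7 at 110.4 CPM, against 1226, 446 and 15.1 CPM in the 1680 without. The 78 transferred cells with Tcf7 had Gzmb at 661, Mki67 at 243 and Ccr7 at 245 CPM, against 825, 366 and 255 in the 416 without. Leaving out the cells with both Xist and Y-linked UMIs moved Gzmb in transferred cells to 469.5 CPM with Tcf7 and 878 CPM without. By this split Ccr7 was higher in the Tcf7 cells of the endogenous library and lay near the same level in both kinds of transferred cell. These are levels of cells from 1 library each. The difference between the libraries, and the part of missed Tcf7 UMIs in it, was not tested.

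The 38 cells of the transferred library with no Trbv14 UMI carried much of its Eomes. They had Eomes at 40.6 (24.5 to 63.4) CPM, against 2.47 (1.70 to 3.47) CPM in the 456 cells with Trbv14, and 19 of the 52 Eomes UMIs of the library. Their Gzmk was at 83.4 (59.3 to 114) against 20.7 (18.3 to 23.3) CPM, Klrg1 at 27.8 (14.8 to 47.5) against 1.35 (0.799 to 2.13), Tox at 201 (162 to 246) against 57.8 (53.8 to 62.1) and Ikzf2 at 169 (134 to 210.5) against 39.4 (36.1 to 42.9). Ccl1 went the other way at 10.7 (3.47 to 24.9) against 458 (446 to 469) CPM, and so did Irf4 at 6.41 (1.32 to 18.7) against 28.6 (25.8 to 31.6). Each of these levels lay on the side of the endogenous library. The 38 cells were shallow, at a median of 8436.5 UMIs, and 29 of them had Y-linked UMIs and no Xist, so a missed Trbv14 UMI and a host receptor were not told apart. In the other direction, the 52 endogenous cells with Trbv14 had Eomes at 132 (111 to 157), Gzmk at 601 (555 to 650.5) and Ccr7 at 4.87 (1.58 to 11.4) CPM, on the side of the rest of their library.

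Comparing transferred cells with Trbv14 against endogenous cells without it gave 446 higher and 764 lower genes, and all 111 named genes with a call kept it. Eomes then stood at a log2 ratio of -4.97 in place of -4.52 and Klrg1 at -4.29 in place of -3.86. Within the transferred library, the 135 cells with Xist alone and the 245 with Trbv14 and Y-linked UMIs alone were compared as well. Gzmk was at 19.4 (14.8 to 25.1) and 20.7 (17.4 to 24.5) CPM, Lag3 at 402 (379.8 to 425) and 345 (331 to 359), Ccr7 at 274 (256 to 293) and 242 (231 to 255), and Irf4 at 28.3 (22.7 to 35.0) and 25.4 (21.7 to 29.6). The intervals for Lag3 and Ccr7 do not overlap. Of 119 named genes, 12 had log2 ratios against the endogenous cells that differed by over 1.5-fold between the 2 kinds. Besides Hspa1a and Hspa1b these were Gzmc at 109 (98.0 to 122) and 14.4 (11.6 to 17.6) CPM, Gzma at 7.91 (5.07 to 11.8) and 39.4 (34.7 to 44.5), Klra7, Mx1, H2-Aa, H2-Ab1, H2-Eb1, Gpr183, Klrg1 and Myb. Gzmc was the higher in the cells with Xist alone, and the others were the lower there. In the whole transferred library Gzmc was found in 9 cells after thinning (6.68% of cells unthinned). Its levels here thus rest on a small number of cells, which the counting intervals do not cover.

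The control arm holds the same comparison in libraries that the IRF4 arm does not share. There, 513 of 7889 genes (6.5%) were higher and 1149 (14.6%) lower in the transferred cells. Over the 7428 genes measured in both arms, 230 were higher in both, which is 55.7% of those higher in the IRF4 arm and 49.0% of those higher in the control arm. Lower in both were 497, or 70.6% of the IRF4 arm's and 53.8% of the control arm's. A further 25 were higher in the IRF4 arm and lower in the control arm, and 1, Il2, was lower in the IRF4 arm and higher in the control arm. Gzmk was at 7.24 CPM in transferred and 121 CPM in endogenous cells of the control arm, Xcl1 at 2076 and 313, Tox at 91.1 and 151, and Ifit3 at 9.89 and 35.5. The type I interferon list had 18 of 23 measured members lower there and the granzyme list 12 of 17, where 14.6% of all genes measured were lower. Monocyte and macrophage markers were lower there too, in 10 of 11 measured members, with a median log2 ratio of -1.10 and summed levels of 1115 CPM in transferred and 3324 CPM in endogenous cells. Their part in the lower interferon and granzyme genes of the control arm was not tested.

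Some genes differed between the arms in how transferred and endogenous cells compared. Ikzf2 had a log2 ratio of -1.83 in the IRF4 arm but of 0.51 in the control arm, where it was at 254 CPM in transferred and 179 CPM in endogenous cells. Its low value was thus that of the transferred library of the IRF4 arm, since the other 3 libraries lay between 158 and 254 CPM. Lag3 had log2 ratios of 1.17 and -0.31, at 158 CPM in transferred and 196 CPM in endogenous cells of the control arm. By CPM only the transferred library of the IRF4 arm, at 361 CPM, lay apart among the 4. Shares of cells in the control arm had the other order. After thinning Lag3 was found there in 28.7% (26.7 to 30.7) of transferred and 20.9% (18.0 to 24.1) of endogenous cells. Eomes had log2 ratios of -4.52 and -1.82, at 11.3 and 42.5 CPM in the control arm, and St3gal6 of -3.05 and -1.60. Myb, a factor of stem-like CD8 cells, had no call in the IRF4 arm (39.2 and 36.3 CPM) and higher in the transferred cells of the control arm (68.4 and 15.8 CPM), and Atp8b4 had log2 ratios of -1.93 and -0.45. Ccl1 had 5.14 and 1.13, with the difference lying mainly in the endogenous cells, at 11.6 CPM in the IRF4 arm and 184 CPM in the control arm. Tcf7 was at 165 and 86.3 CPM in the control arm (log2 ratio 0.93), and Pdcd1 at 236 and 248 (-0.07). With 1 library a group, none of these differences between arms was tested.

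**Figure D5:**
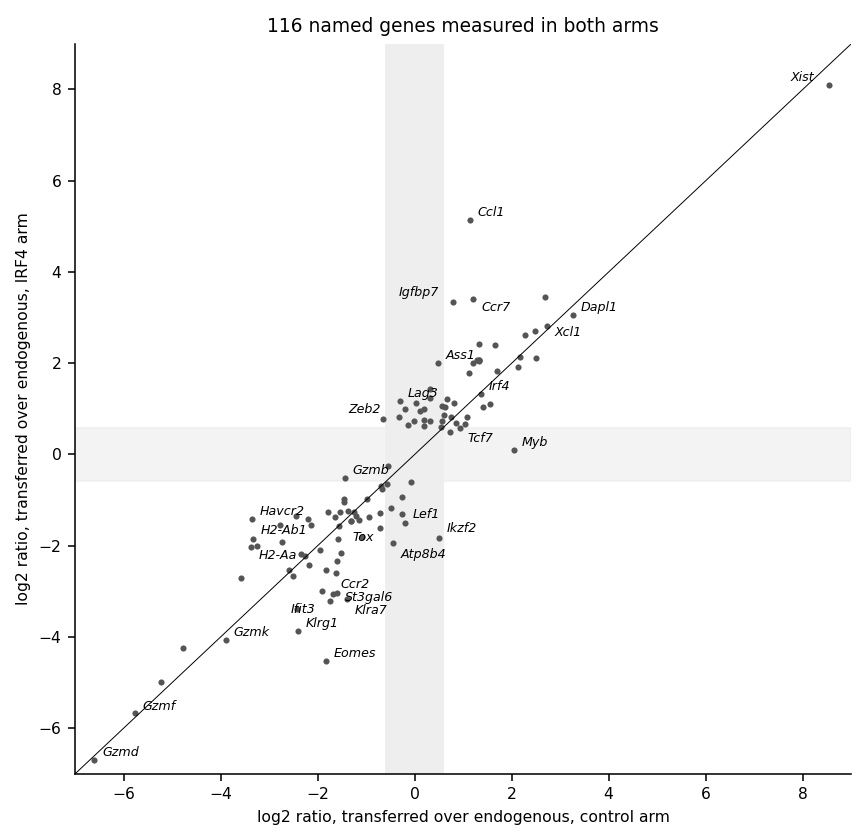
Log2 ratio of transferred over endogenous cells for the control arm (x) and the IRF4 arm (y), on CPM + 1, for 116 named genes measured in both arms, 1 point a gene, with the line of equal ratios and the 1.5-fold limits as grey bands. Ikzf2 lies at 0.51 and -1.83, Eomes at -1.82 and -4.52, and Ccl1 at 1.13 and 5.14, away from that line.

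Markers of other cells were read in the same cells. Of 11 monocyte and macrophage markers the summed level was 747 CPM in transferred and 1006 CPM in endogenous cells, with none at 0. The 4 higher members were C1qa (48.5 against 11.9 CPM), C1qb (61.6 against 16.9), C1qc (34.0 against 8.78) and Apoe (49.8 against 11.9), with 50% of the C1qa UMIs in 3 transferred cells. Cd74 (278 against 588) and Tyrobp (42.1 against 90.2) were lower. Of 8 NK cell markers the summed level was 94.6 and 395 CPM, mostly from Gzma, Eomes and Tyrobp. The more specific Ncr1 was at 0.579 and 9.41 CPM, and Klra8 at 0 and 5.67. Of 9 B cell markers the sum was 190.3 and 122 CPM, with Ms4a1 and Fcmr among those at 0 in the transferred cells and Ighm at 167 and 60.4. The 6 neutrophil markers summed to 51.4 and 14.7 CPM, with S100a8 in 3 transferred cells.

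The other lists were low. The 8 dendritic cell markers summed to 17.2 and 36.2 CPM, with Clec9a, Cd209a and Siglech at 0 in the transferred cells. The 6 gamma-delta T cell markers summed to 50.6 and 40.2, with Trdc at 46.3 and 10.5 and Tcrg-C2 at 0.796 and 23.4. The 5 CD4 and regulatory T cell markers summed to 197 and 99.3, nearly all from Ctla4 and Il2ra, with Foxp3 at 0 in the transferred and 1.42 CPM in the endogenous cells. The 4 platelet markers summed to 15.3 and 4.53, the 5 stromal and endothelial markers to 18.5 and 14.7, the 8 melanoma markers to 9.99 and 6.72, the 5 erythroid markers to 0.362 and 0.453, and the 4 mast cell and basophil markers to 0 and 3.15. Among cells with no UMI of C1qa, C1qb, C1qc or Apoe, 453 genes were higher and 768 lower, and of the named genes with a call all but 2 kept it. The part of other cells' RNA in the class II genes was not tested.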

How the data were processed

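Droplet 3' RNA counts of gated CD8 T cells were compared between the transferred and the endogenous library of the IRF4 arm, and of the control arm beside it, with groups taken from the labels and 1 library in each. The values deposited by the authors are raw UMI counts for each gene in each barcode. Per the submitters' processing notes the tools were Cell Ranger 3.0.2 and STAR 2.6 and the assembly mm10. The sources used here do not name the annotation. Per the labels' protocols the material was sorted as cells, while the text also speaks of a nucleus suspension, so barcodes were treated as cells and this was not settled. The files hold 28692 genes by identifier and symbol, and counts of the 58 symbols with more than 1 identifier were kept apart. Named gene coordinates are from GENCODE vM21 (560 of 560 matched), and promoters from RefSeq on GRCm38.p6.

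UMIs of gated cells were summed per library and scaled to CPM. Ratios used a pseudocount of 1 CPM, genes entered if either library reached 10 CPM, and were called at 1.5-fold, with exact Poisson (levels), conditional binomial (ratios) and Clopper-Pearson (shares) intervals at 95% that cover counting error only. A count of 0 was given a floor of 3 counts. Shares used cells thinned to 2000 UMIs, which left out 0 transferred and 0 endogenous cells of the IRF4 arm and 5 transferred cells of the control arm. B cells (at least 2 UMIs of Cd79a) and myeloid cells (Lyz2 at 10 or more per 10000 UMIs), both without CD3 and CD8 UMIs, were the background. No test was made, since cells are no replicates. No doublet caller was run. Cells with both Xist and Y-linked UMIs were left out in an alternative, which does not replace one. In the IRF4 arm it took out 49 transferred and 2 endogenous cells. Doublets of cells with the same sex-linked transcripts do not carry this mark, so doublets within the endogenous library went unchecked.

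Members, gene lists and markers were chosen with earlier results of these data known. Named genes were 12 primary genes, the 15 highest and 15 lowest ratios for genes that reached 50 CPM, 20 UMIs and 5% of cells in the higher library (ribosomal, mitochondrial, predicted, antigen receptor and gate genes left out), up to 4 called members of each list with the largest ratios, and the 5 genes that differed most between arms in each direction. Others named in the report are list members or markers, or were chosen after their values were seen. Some members of the lists are not reported here by name. In all 20 alternatives were run. Of these 15 cover scaling, weight of a cell, thinning, pseudocount, filters, fold, gate, deepest cells, shared barcodes, cycling and Pdcd1, and 5 on cell origin and macrophage transcripts were added after the data were seen. The tools were Python 3.11.15, numpy 2.4.6, scipy 1.17.1, pandas 2.3.3 and matplotlib 3.10.9.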

Additional observations from a re-analysis of the deposited data

Results flagged for a closer look

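Zeb2, a factor of terminal effector T cells that macrophages also express, had a log2 ratio of transferred over endogenous cells of 0.78 in the IRF4 arm, against -0.65 in the control arm, so that it was called higher in one and lower in the other. It stood at 56.8 and 32.6 CPM in the IRF4 arm, against 79.2 and 125 CPM in the control arm, where 50% of the endogenous UMIs came from 30 cells. With cells thinned to 2000 UMIs the log2 ratio of Zeb2 in the IRF4 arm was 0.27, short of the call. A Zeb2 UMI was then found in 7.49% (5.33 to 10.2) of transferred and 6.63% (5.58 to 7.80) of endogenous cells of that arm. These intervals overlap, as do those of the thinned shares in the control arm. The call of Zeb2 as higher in the IRF4 arm thus did not hold at equal depth. Il2 had log2 ratios of -0.90 and 1.10, at 5.36 and 10.8 CPM in the IRF4 arm, against 17.5 and 7.64 CPM in the control arm, where 50% of the transferred UMIs came from 12 cells. Neither difference between the arms was tested.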

How the results depend on the processing

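Of the 111 named genes with a call in the IRF4 arm, 109 kept their direction and 91 their call in all of the 20 alternatives that gave them a value. The 2 that turned were Bbc3 and Il7r. Bbc3 stood at a log2 ratio of -0.14 with cells thinned to 2000 UMIs. Il7r stood at -0.029 among cells without a cycle gene UMI after thinning. The cause was not tested. The 433 higher and 733 lower genes of the IRF4 arm became 270 and 453 with a pseudocount of 10 CPM, 177 and 323 with a filter of 50 CPM, 837 and 1374 with no filter, and 171 and 268 at a fold of 2. The higher count was 728 with thinned cells. In the control arm the 513 higher genes became 874 with thinned cells, and the 513 higher and 1149 lower became 164 and 485 at a fold of 2. Fewer or more genes tested and a stricter call move these counts by construction, and the cause of the change with thinning was not tested. Scaling by the median of gene ratios shifted the log2 ratios by 0.06 and took the share of higher genes among those called from 37.1% to 46.3% in the IRF4 arm and from 30.9% to 40.5% in the control arm. The other alternatives run left these counts within 1.5 times, with 20 run for the IRF4 arm and 10 for the control arm, where those on pseudocount, filter, average of single cells, gate, mitochondrial limit, deepest cells and shared barcodes were not run. No paired analysis was possible because each group is 1 library. The 494 transferred cells limit what can be seen: 3 UMIs in their library stand for 0.217 CPM, against 0.0850 CPM in the endogenous library.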

Other observations

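Of the 25 genes higher in transferred cells in the IRF4 arm and lower in the control arm, several are known from macrophages and were picked here after their values were seen. In the IRF4 arm Hmox1 was at 42.5 CPM in transferred and 12.8 CPM in endogenous cells, against 108 and 227 CPM in the control arm. Lgmn was at 34.6 and 14.5 CPM in the IRF4 arm and at 58.2 and 126 in the control arm, and Spp1 at 82.2 and 46.2 against 144 and 241. The endogenous library of the control arm had the highest summed level of the 11 monocyte and macrophage markers, at 3324 CPM, against 1115 CPM in the transferred cells of that arm. Haemoglobin transcripts gave the other large differences between arms. Hbb-bs was at 0.0724 and 0.312 CPM in transferred and endogenous cells of the IRF4 arm and at 103 and 969 CPM in the control arm, with 50% of the UMIs of the control arm in 1 transferred and 2 endogenous cells. Hba-a1, Hba-a2 and Hbb-bt were likewise under 1 CPM in both libraries of the IRF4 arm.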
